A study of Mus musculus with 6 samples.

Results

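Interleukin-12 family genes were followed in RNA-seq libraries of endometriosis lesions grown from donor tissue with or without a conditional deletion of Dnmt3a, a DNA methyltransferase that adds methyl groups to unmethylated cytosines. The 10 genes, of 56884 in the count table, were taken by name. They are the cytokine chains Il12a, Il12b, Il23a, Ebi3 and Il27, the receptor chains Il12rb1, Il12rb2, Il23r and Il27ra, and the transcription factor Stat4. The lesions grew from uterine tissue of 8-week-old female donors that had received estradiol. WT donors were Dnmt3a f/f, with floxed alleles and no Cre, and KO donors were Dnmt3a f/f:PR-Cre/+, in which Cre is made in cells that express the progesterone receptor. The recipients of both groups were wild-type C57BL/6J females with estradiol pellets, so that cells entering a lesion from the host carried an intact Dnmt3a. There were 3 lesions per group, each 1 library. The labels give 4 weeks as the time and fragments injected into the peritoneum, whereas the study's methods give day 21 and a sutured fragment.

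The cytokines of this family are secreted as pairs of an alpha chain, a four-helix bundle, and a beta chain that resembles a soluble receptor, and the chains are shared. IL-12 joins Il12a to Il12b, IL-23 joins Il23a to Il12b, IL-27 joins Il27 to Ebi3, and IL-35 joins Il12a to Ebi3. Macrophages and dendritic cells are the usual sources of IL-12, IL-23 and IL-27, while T cells and NK cells carry the receptors, through which IL-12 drives interferon gamma and IL-23 sustains IL-17. These cytokines are studied in endometriosis because immune cells are abundant in the lesions.

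Library totals ran from 45370342 to 57239184 counts. Dnmt3a itself had 43.9 to 52.7 CPM in WT and 30.3 to 36.2 CPM in KO lesions, where CPM is the count scaled to library size with TMM factors. The summed level of 8 endometrial epithelium markers was 1515 to 3001 CPM and that of 8 stroma markers was 1889 to 5081 CPM, and each library held both. Of the stroma markers, 3 (Esr1, Hand2 and Hoxa11) were higher in KO at the threshold given below, beside 3.1% of all tested genes. Without KO replicate 1 this count was 0. Other tissue was uneven. The 8 skeletal muscle markers summed to 26690 and 28800 CPM in WT replicates 1 and 3 and to at most 14.7 CPM in the other libraries. The 8 neutrophil markers summed to 9847 CPM in WT replicate 2 and to at most 479 CPM elsewhere. In whole lesions, fewer cells of a type and less RNA per cell cannot be told apart. Of the counts between 1 and 20, 89.2% to 90.6% were even in each library, and of the 56 counts above 0 of the 10 genes, 43 were even. How many independent fragments stand behind a low count was not tested.

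Which heterodimers could form was read from the raw counts, with a pair called counted where each of its genes had at least 10 counts in the same lesion. IL-23 was the only cytokine of the 4 whose chains were both counted in KO lesions, in 3 of 3, and it was also counted in 3 of 3 WT lesions. IL-12 was counted in 3 of 3 WT lesions and in 0 of 3 KO lesions, and so was IL-35. In each case Il12a was the chain that was missing. IL-27 was counted in 1 of 3 WT lesions, replicate 2, and in 0 of 3 KO lesions, with Il27 as the scarce chain. These are counts from whole lesions, so they do not show that a single cell made both chains, and they say nothing of protein.

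**Figure D1:**
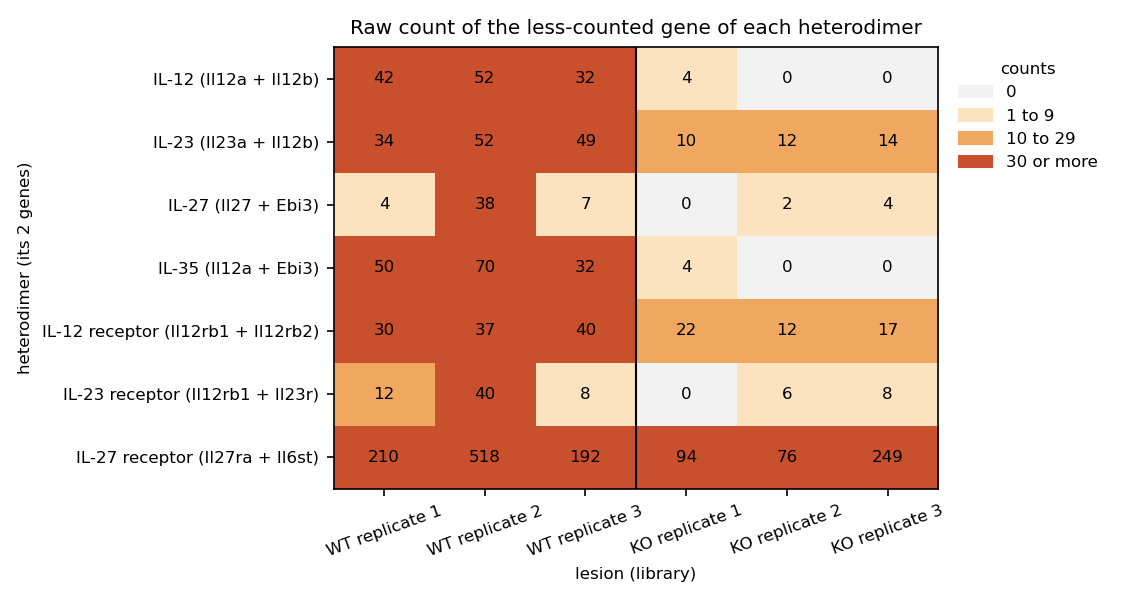
The plot of heterodimer counts gives, for each pair (rows) and lesion (columns), the raw count of whichever of its 2 genes was counted less, shaded by class. The IL-12 and IL-35 rows fall from 32 or more in every WT lesion to 4, 0 and 0 in the KO lesions, and the IL-23 row falls from 34, 52 and 49 to 10, 12 and 14.

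The size of the IL-23 result in KO lesions depended on the minimum. The less-counted chain there was Il12b, with 10, 12 and 14 counts, and no KO lesion reached 30 counts of both chains. At a minimum of 4 counts, IL-12 and IL-35 were each counted in 1 KO lesion, replicate 1. At that minimum IL-27 was counted in 3 of 3 WT lesions and in 1 KO lesion, replicate 3.

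Il12a, the alpha chain of IL-12 and IL-35 (ENSMUSG00000027776.13, GRCm38 chromosome 3 from 68690644 to 68698547), had 50, 70 and 32 counts in the WT lesions (in replicate order, as in all such lists) against 4, 0 and 0 in the KO lesions. The groups did not overlap. As levels these were 1.07, 1.58 and 0.683 CPM for WT against 0.0702, 0 and 0 CPM for KO. The counts of 0 allow up to 0.0596 and 0.0625 CPM in KO replicates 2 and 3 (3 counts, counting error only). This limit takes each count as independent, which was not tested. The means were 1.11 ± 0.448 CPM (SD, n = 3) and 0.0234 ± 0.0405 CPM (permutation test, exact and two-sided, p = 0.1, and no smaller p is possible with groups of 3). The log2 fold change was -5.33 (SE 1.06, unadjusted p = 0.00232, adjusted p = 0.321 by edgeR's quasi-likelihood test and the Benjamini-Hochberg procedure). Without KO replicate 1, when both remaining KO libraries were at 0, the fitted value was -8.72, which is no measure of size.

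Il12b, the beta chain that IL-12 and IL-23 share (ENSMUSG00000004296.15, chromosome 11 from 44400063 to 44414033), had 42, 52 and 49 counts in WT and 10, 12 and 14 counts in KO lesions. The groups did not overlap, and both were narrow. The means were 1.04 ± 0.137 CPM in WT and 0.235 ± 0.0582 CPM in KO lesions (SD, n = 3), a 4.41-fold difference of the means (exact permutation p = 0.1). On the log2 scale KO was lower with a fold change of -2.13 (SE 0.34, unadjusted p = 0.000784, adjusted p = 0.321, edgeR). Leaving out single lesions gave -2.31 to -1.96.

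Il23a, the alpha chain of IL-23 (ENSMUSG00000025383.3, chromosome 10 from 128296139 to 128298752), had 34, 274 and 261 counts in WT and 92, 74 and 186 counts in KO lesions. The lowest value was in WT replicate 1, below every KO lesion, and the groups overlapped. Its log2 fold change was -0.84 (SE 0.82, adjusted p = 0.624, edgeR), and the difference was smaller than the spread between lesions. Without WT replicate 1 it was -1.34 with an unadjusted p of 0.0487 from edgeR.

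The balance between the chains was compared within each library, after division by the length of the merged exons. Il23a stood at 0.709, 4.61 and 4.66 times Il12b in WT and at 8.05, 5.40 and 11.6 times Il12b in KO lesions (exact permutation p = 0.1). Il12a stood at 1.38, 1.56 and 0.755 times Il12b in WT and at 0.463, 0 and 0 times in KO lesions (exact permutation p = 0.1). For both ratios the groups did not overlap. Il12b was thus the scarcer chain of IL-23 in all 3 KO lesions and in 2 of 3 WT lesions, and Il12a was the scarcer chain of IL-12 in all 3 KO lesions and in 1 of 3 WT lesions, replicate 3.

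Because Dnmt3a methylates CG dinucleotides, the bases upstream of the annotated starts of the IL-12 chains are shown, with each CG in capitals. RefSeq (GRCm38.p6) lists a pair of starts for Il12a and a single start for Il12b, and for each the 250 bases before the start are given 5′ to 3′, at chr3:68690394-68690643, chr3:68691174-68691423 and chr11:44399813-44400062, all on the plus strand.
Il12a, start 1: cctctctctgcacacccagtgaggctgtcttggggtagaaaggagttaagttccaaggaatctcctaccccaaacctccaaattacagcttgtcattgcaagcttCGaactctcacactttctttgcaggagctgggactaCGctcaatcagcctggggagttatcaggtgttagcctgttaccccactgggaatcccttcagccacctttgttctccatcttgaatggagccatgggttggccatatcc
Il12a, start 2: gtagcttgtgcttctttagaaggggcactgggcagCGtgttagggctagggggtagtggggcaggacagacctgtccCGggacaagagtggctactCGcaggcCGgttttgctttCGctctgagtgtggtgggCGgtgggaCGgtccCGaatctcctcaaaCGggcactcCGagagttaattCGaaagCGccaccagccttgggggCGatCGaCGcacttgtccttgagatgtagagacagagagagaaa
Il12b: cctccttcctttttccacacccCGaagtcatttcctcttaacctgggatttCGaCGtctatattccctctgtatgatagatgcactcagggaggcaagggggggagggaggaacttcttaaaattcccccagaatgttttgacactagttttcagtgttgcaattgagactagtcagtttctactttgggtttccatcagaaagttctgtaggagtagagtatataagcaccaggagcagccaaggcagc

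The starts of Il12a held 2 and 15 CG dinucleotides in these windows, and that of Il12b held 3. The median over the 32851 listed starts was 6, and at least 15 were found before 27.3% of them. CG reads the same on both strands. Of the other genes of the family in that table, Ebi3 had 2, Il12rb2 had 10, Il23r had 1, and the starts of Stat4 had 1 and 3. Altogether 6 of the 10 genes were matched. No methylation was measured, and the counts do not tell from which start of Il12a the transcripts came. Whether transcripts of these genes came from donor cells or from host cells with an intact Dnmt3a was not tested.

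Ebi3, the beta chain of IL-27 and IL-35 (ENSMUSG00000003206.8, chromosome 17 from 55952640 to 55957022), had 138, 1035 and 100 counts in WT and 86, 56 and 106 counts in KO lesions. WT replicate 2 stood far above the rest, and WT replicate 3 lay below KO replicate 3 in counts and in CPM (2.14 against 2.21). The log2 fold change was -2.55 (SE 1.00, unadjusted p = 0.0436, adjusted p = 0.334, edgeR). Without WT replicate 2 it was -0.66 (unadjusted p = 0.165, edgeR), and it was past the threshold in 2 of the 6 fits that left out a lesion. WT replicate 2 also held the most neutrophil, macrophage, T-cell and B-cell markers. The part of those cells in it was not tested.

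Il27, the alpha chain of IL-27 (ENSMUSG00000044701.6, chromosome 7 from 126589010 to 126594941), had 4, 38 and 7 counts in WT and 0, 2 and 4 counts in KO lesions. It was too low for the filter and was left untested. The WT values lay above the KO values on the CPM scale, though WT replicate 1 (0.0854 CPM) and KO replicate 3 (0.0834 CPM) held the same 4 counts. Without a filter, edgeR gave a log2 fold change of -3.08 (unadjusted p = 0.0523, adjusted p = 0.451), and 5.45% of all genes in that fit were past the threshold on the lower side. Il27 was not among them. Where Il27 was counted, Ebi3 was 12.6 to 30.5 times more abundant per kilobase in the same library. Apobr, with 1953 to 4353 counts, overlaps Il27 on the other strand by 103 bases, exon bases of Il27 included. Reads of Apobr among those of Il27 were not tested.

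**Figure D2:**
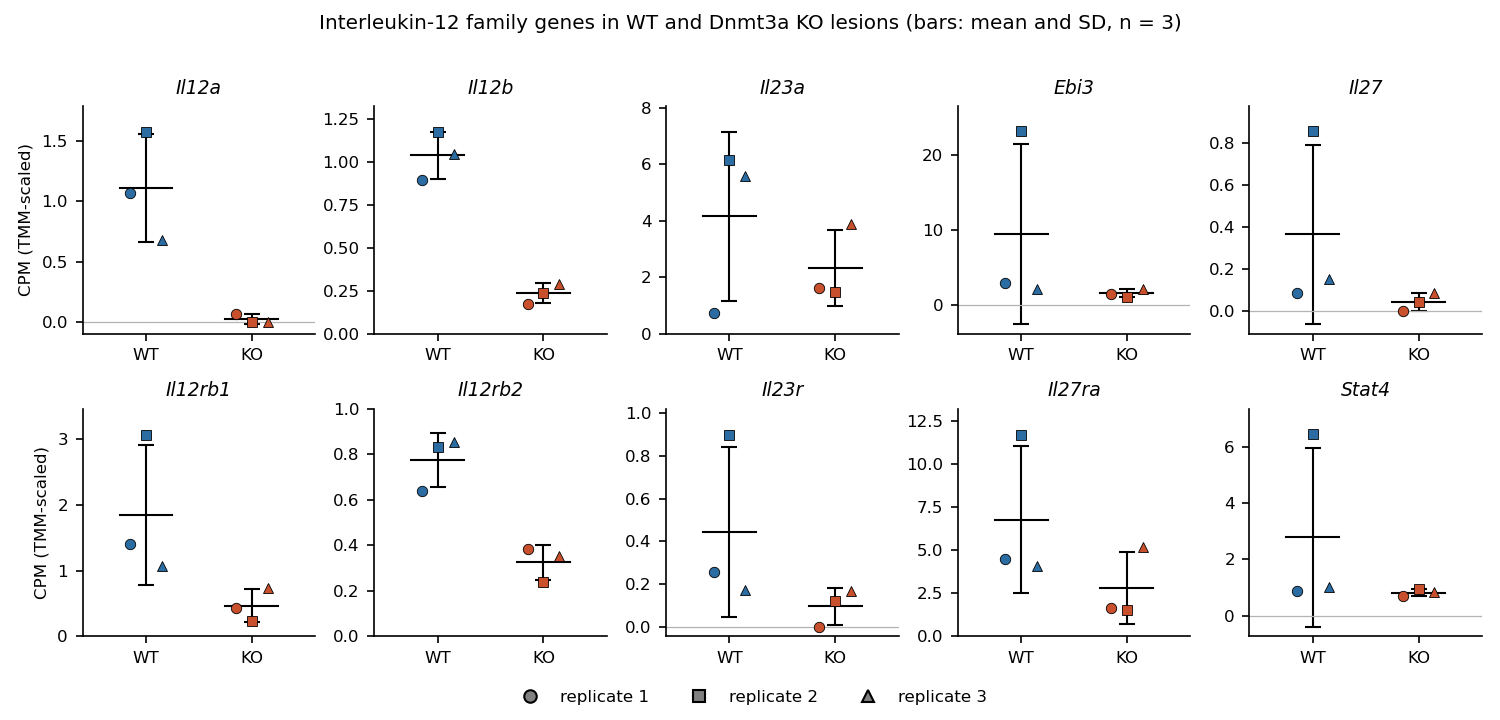
The plot of levels by lesion shows the CPM of each of the 10 genes on its own linear axis, with a symbol for each replicate and bars for the mean and SD of 3 lesions. Il12a, Il12b and Il12rb2 separate WT from KO, with similar values within WT for Il12b and Il12rb2. In Ebi3, Il27, Il23r, Il27ra and Stat4 the square of WT replicate 2 stands apart from the other 5 lesions.

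The receptor chains were low in all libraries. Il12rb1 is part of the receptors of both IL-12 and IL-23 (ENSMUSG00000000791.10, chromosome 8 from 70808449 to 70821424) and had 66, 136 and 50 counts in WT and 25, 12 and 35 counts in KO lesions. The groups did not overlap. Its means were 1.85 ± 1.07 CPM in WT and 0.469 ± 0.247 CPM in KO lesions (SD, n = 3, exact permutation p = 0.1). The fitted log2 fold change was -1.97 (SE 0.60, unadjusted p = 0.0167, adjusted p = 0.325, edgeR). It was -1.40 without WT replicate 2 and still past the threshold (unadjusted p = 0.0496, edgeR). It was not past the threshold without KO replicate 1 (log2 fold change -1.92, unadjusted p = 0.0589, edgeR).

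Il12rb2, the signalling chain of the IL-12 receptor (ENSMUSG00000018341.13, chromosome 6 from 67291318 to 67376188), had 30, 37 and 40 counts in WT and 22, 12 and 17 counts in KO lesions. All WT lesions lay above all KO lesions, and this was the only gene of the family whose highest value was not in WT replicate 2. The means were 0.776 ± 0.118 and 0.326 ± 0.0777 CPM (SD, n = 3, exact permutation p = 0.1), and the log2 fold change was -1.24 (SE 0.34, unadjusted p = 0.0110, adjusted p = 0.321, edgeR). Serbp1, a far more abundant gene with 8558 to 17221 counts, overlaps Il12rb2 on the other strand by 6419 bases, exons of Il12rb2 included. The strand setting of the counting is not given, so reads of Serbp1 among those of Il12rb2 were not tested.

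Il23r, the specific chain of the IL-23 receptor (ENSMUSG00000049093.10, chromosome 6 from 67422932 to 67491855), had 12, 40 and 8 counts in WT and 0, 6 and 8 counts in KO lesions and was likewise left untested. WT replicate 3 and KO replicate 3 held the same count. Without a filter, edgeR gave a log2 fold change of -2.19 (unadjusted p = 0.109). The IL-23 receptor pair was therefore counted in 2 of 3 WT lesions and in 0 of 3 KO lesions at the minimum of 10, whereas the IL-12 receptor pair was counted in all 6 lesions.

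Il27ra, the specific chain of the IL-27 receptor (ENSMUSG00000005465.10, chromosome 8 from 84030294 to 84042589), had 210, 518 and 192 counts in WT and 94, 76 and 249 counts in KO lesions. KO replicate 3 lay above WT replicates 1 and 3, and the groups overlapped. Its log2 fold change was -1.28 (SE 0.67, unadjusted p = 0.104, adjusted p = 0.394, edgeR). Its partner Il6st, the chain shared with the interleukin-6 family, had 584 to 778 CPM in WT and 865 to 1184 CPM in KO lesions. Its KO values were all above its WT values, with a log2 fold change of 0.60 (SE 0.21, adjusted p = 0.328, edgeR), short of the fold required. The IL-27 receptor pair was counted in all 6 lesions at every minimum tried.

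Stat4, which carries the signal of the IL-12 receptor to the nucleus (ENSMUSG00000062939.12, chromosome 1 from 51987148 to 52107189), had 41, 287 and 48 counts in WT and 39, 47 and 40 counts in KO lesions. Leaving aside WT replicate 2, the other 5 lesions were alike. The log2 fold change was -1.77 (SE 0.85, unadjusted p = 0.0818, adjusted p = 0.369, edgeR), and without WT replicate 2 it was -0.22 (unadjusted p = 0.557, edgeR).

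In all, 8 of the 10 genes passed the filter on low counts. Of these, 5 were past the study's threshold on the lower side, an unadjusted p under 0.05 with a log2 fold change below -1, where 5.85% of all 18177 tested genes were. They were Il12a, Il12b, Ebi3, Il12rb1 and Il12rb2. On the higher side 0 of the 8 were past the threshold, against 3.1% of all tested genes. None of the 8 had an adjusted p under 0.05 in edgeR (0.321 to 0.624, with 5 at an unadjusted p under 0.05), as was true of all but 0.0055% of the tested genes. DESeq2 gave an adjusted p under 0.05 to 3 genes, Il12a, Il12b and Il12rb1. The share of all genes that DESeq2 called was not worked out, so that count has no background beside it. For 6 of the 10 genes, and 4 of the tested 8, the WT lesions were all above the KO lesions, which held for 8.74% of the tested genes. The median log2 fold change was -1.87 over the 8 genes and 0.01 over all tested genes. Il12a passed the filter through its WT values, so its place among the 8 is tied to its difference. For 9 of the 10 genes the highest value was in WT replicate 2, which was the highest library for 24.2% of all tested genes. Without that lesion, Il12a, Il12b, Il12rb1 and Il12rb2 were past the threshold, against 5.86% of the genes then tested.

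**Figure D3:**
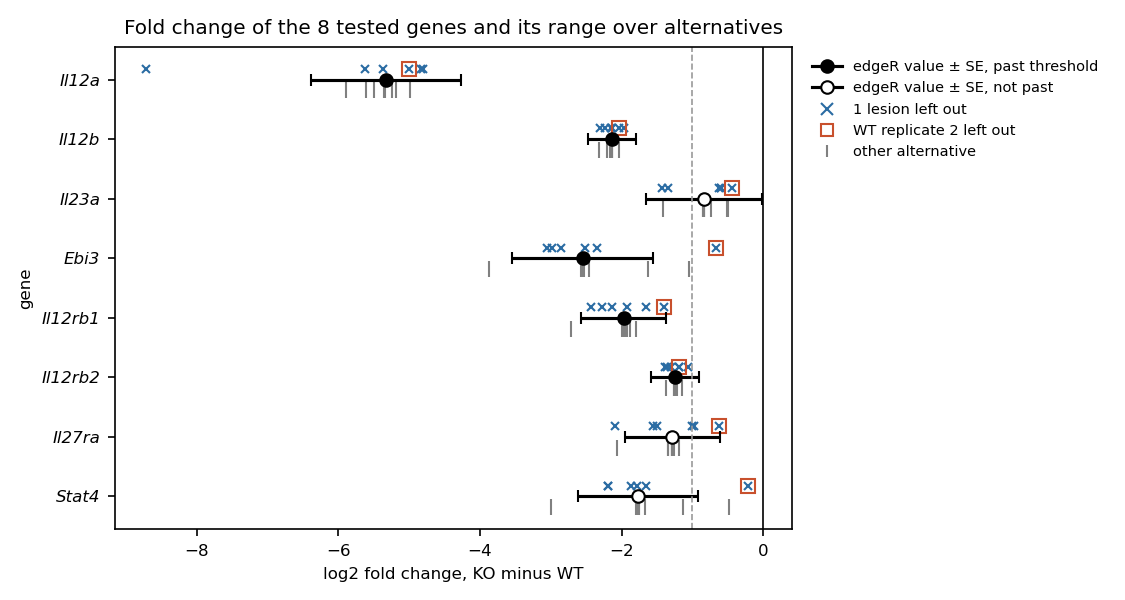
The plot of fold changes gives the log2 fold change (KO minus WT, horizontal axis) of the 8 tested genes, with its SE, filled where past the threshold, and the values under each alternative, and the dashed line marks the fold required. All alternatives lie below 0, the red square without WT replicate 2 moves Ebi3 to -0.66 and Stat4 to -0.22, and Il12b stays between -2.32 and -1.96.

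Ordered by level per kilobase, Ebi3 had the highest group mean in both groups, with a mean of 8.20 ± 10.4 CPM per kilobase in WT and 1.40 ± 0.481 in KO lesions (SD, n = 3). The WT mean was carried by replicate 2, at 20.2 CPM per kilobase against 2.55 and 1.85 in the others, and in WT replicate 3 Il23a stood above Ebi3, at 2.48. Il27ra and Il23a followed in WT, with means of 1.93 ± 1.22 and 1.85 ± 1.33 CPM per kilobase, and these neighbours differed by less than their spread. The lowest in WT was Il23r, at 0.178 ± 0.160 CPM per kilobase. In KO lesions the lowest was Il12a, at 0.0138 ± 0.0238 CPM per kilobase. In WT lesions it stood at 0.652 ± 0.263 CPM per kilobase, next to Il12b at 0.528 ± 0.0697.

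The receptor chains were set against T-cell markers. The 10 T-cell markers, among them the CD3 chains and Cd4, summed to 37.4, 108 and 40.6 CPM in WT and to 12.9, 8.62 and 28.8 CPM in KO lesions, and 8 of the 10 were past the threshold on the lower side, beside 5.85% of all tested genes. That count fell to 2 when WT replicate 2, KO replicate 1 or KO replicate 2 was left out, and to 3 with the replicate block. As a share of that sum, Il12rb1 was at 3.77%, 2.84% and 2.63% in WT and at 3.40%, 2.77% and 2.54% in KO lesions, with overlap (exact permutation p = 0.6). Il12rb2 was at 0.771% to 2.10% in WT and 1.23% to 2.99% in KO lesions, also with overlap (exact permutation p = 0.3). Il27ra was higher in every KO lesion on this scale, with a lowest KO value of 12.8% and means of 16.1% in KO and 10.96% in WT lesions (exact permutation p = 0.1). Stat4, with means of 3.62% in WT and 6.34% in KO lesions, and Il23r, with means of 0.647% and 0.654%, overlapped (exact permutation p = 0.5 and 1). The separation seen in CPM for Il12rb1 and Il12rb2 was thus not seen relative to T-cell markers. For the 6 NK-cell markers, which summed to 4.87 to 9.18 CPM in WT and 3.22 to 3.82 CPM in KO lesions, 2 of 5 tested were past the threshold on the lower side, and 0 without WT replicate 2, KO replicate 1 or KO replicate 2.

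The cytokine chains of IL-12 were set against markers of the cells that usually make them. Of the 8 dendritic-cell markers, such as Xcr1, Clec9a and Zbtb46, 1, Ccr7, was past the threshold on the lower side, beside 5.85% of all tested genes. This count was 0 without WT replicate 2, KO replicate 1 or KO replicate 2, and 2 without KO replicate 3. The dendritic-cell markers summed to 54.1 to 58.4 CPM in WT and 38.5 to 63.8 CPM in KO lesions. Against that sum, Il12a was at 1.20% to 2.91% in WT and 0% to 0.136% in KO lesions, and Il12b at 1.54% to 2.16% in WT and 0.341% to 0.620% in KO lesions, without overlap in either case (exact permutation p = 0.1 for each). Ebi3 also separated, narrowly, at 3.76% to 43.1% in WT and 2.89% to 3.46% in KO lesions, while Il23a overlapped, at 1.24% to 11.4% in WT and 3.13% to 6.08% in KO lesions. Of the 8 macrophage markers, 0 were past the threshold on the lower side, beside 5.85% of all tested genes. Without KO replicate 3 this count was 5, and with any other lesion left out it was 0. The macrophage markers summed to 1153 to 2680 CPM in WT and 554 to 1380 CPM in KO lesions. Against them Ebi3 and Il23a overlapped, Il12a again separated the groups, while Il12b came close to overlap, at 0.0437% in WT replicate 2 and 0.0430% in KO replicate 2. No marker of either list was at 0 in any library. These ratios were chosen after the values were seen, and which cells held the transcripts was not tested.

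**Figure D4:**
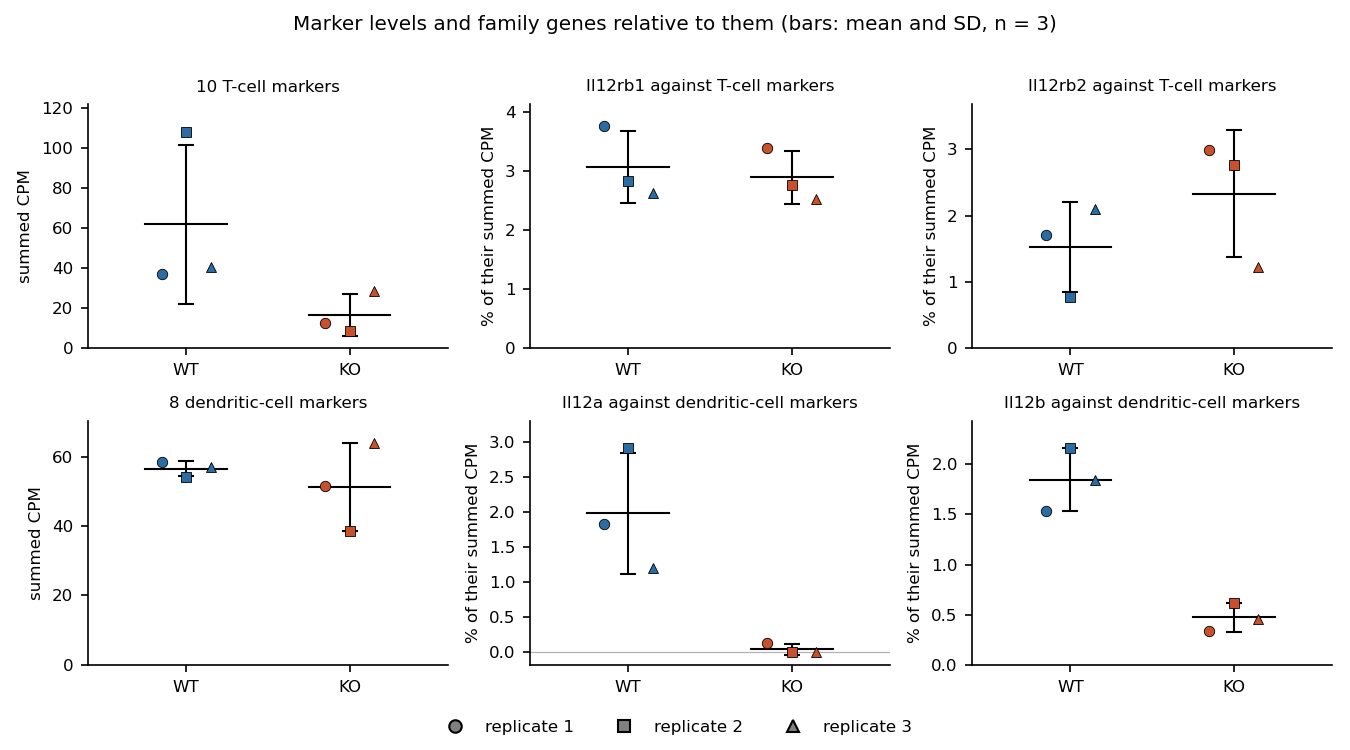
The plot of marker levels shows the summed CPM of T-cell and dendritic-cell markers (left panels) and family genes as a percentage of those sums, by lesion, with bars for the mean and SD of 3 lesions. Il12rb1 overlaps between the groups once set against T-cell markers, while Il12a and Il12b stay separate when set against dendritic-cell markers.

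Genes on either side of these cytokines were read from lists of the pathway. Of 12 genes that act in the induction of the family, such as Irf8, Rel and Tlr9, 1 was past the threshold on the lower side and 0 on the higher side. This was Cd40, the receptor through which T cells prompt dendritic cells to make IL-12, with a mean of 17.7 CPM in WT and 4.93 CPM in KO lesions (log2 fold change -1.84, SE 0.55, adjusted p = 0.321, edgeR). All 3 WT lesions lay above the KO lesions for it, but without KO replicate 1 it missed the threshold (-1.62, unadjusted p = 0.0588, edgeR). With other single lesions left out, up to 4 genes of this list were past it. Nfkb1, the most abundant of the others, had a log2 fold change of -0.69 (SE 0.32, adjusted p = 0.362, edgeR). Of the 8 shared chains, kinases and STATs, 0 were past the threshold in either direction. On the higher side the count was 1 without WT replicate 1 and 1 without KO replicate 3.

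Of the 14 genes of the type 1 response, to which IL-12 belongs, 11 were tested, 4 were past the threshold on the lower side and 0 on the higher side. Cxcl9, a ligand of Cxcr3 induced by interferon gamma, had 796, 1066 and 734 counts in WT and 208, 94 and 242 counts in KO lesions. Cxcl10, another such ligand, had a log2 fold change of -2.77 (SE 0.80, adjusted p = 0.321, edgeR), and Gzmb, a protease of cytotoxic cells, one of -2.49 (SE 0.76, adjusted p = 0.325, edgeR). The last of the 4 was Il18rap, a chain of the interleukin-18 receptor, at -2.26 (SE 0.90, adjusted p = 0.334, edgeR), whose groups overlapped. Without WT replicate 2, Il18rap was at -0.63 (unadjusted p = 0.153, edgeR), and it also missed the threshold without any single KO lesion. Cxcl10 missed it without KO replicate 1, and Gzmb without KO replicate 2 or 3. WT replicate 2 moved the sizes of both, to -1.79 and -1.32. The list's count on the lower side ran from 2, without KO replicate 1 or 2, to 7, without WT replicate 3. On the higher side it was 1 without WT replicate 2 and 1 without KO replicate 3. Cxcl9 was past the threshold on the lower side with each lesion left out. Ifng itself was too low to be tested, with 8, 10 and 3 counts in WT and 4, 4 and 4 counts in KO lesions. Ifngr1, the most abundant of the rest, was at -0.17 (SE 0.21, adjusted p = 0.71, edgeR).

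Among genes of the type 17 response, to which IL-23 belongs, Ccr6, a receptor on IL-17-producing cells, was past the threshold on the lower side. It had 32, 173 and 24 counts in WT and 4, 4 and 20 counts in KO lesions. As with Il12a, its WT values carried it past the filter, so its being tested is tied to its difference. Its log2 fold change was -3.16 (SE 1.13, adjusted p = 0.328, edgeR). Without WT replicate 2 this was -1.66 (unadjusted p = 0.114, edgeR), and the threshold was also missed without KO replicate 1, without KO replicate 2 and with the replicate block. Il17ra, the receptor chain for IL-17, was at -0.08 (SE 0.40, adjusted p = 0.94, edgeR), and its sign depended on the scaling. Il17a was not tested. It had 34, 338 and 4 counts in WT and 0, 0 and 8 counts in KO lesions, so the groups overlapped.

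Of 8 genes induced by IL-27 or limiting STAT signalling, 4 were past the threshold on the lower side and 0 on the higher side. The count of 4 fell to 0 without WT replicate 2, and to 1 without KO replicate 1, without KO replicate 2 or with the replicate block. Socs3, a feedback inhibitor of STAT signalling, had 3515, 17023 and 2264 counts in WT and 1554, 1050 and 2136 counts in KO lesions. Il10, an anti-inflammatory cytokine, had 56, 384 and 34 counts in WT and 18, 14 and 33 counts in KO lesions. Both were highest in WT replicate 2. Cd274, the ligand of the PD-1 checkpoint, had a log2 fold change of -3.10 (SE 1.24, adjusted p = 0.336, edgeR), and Havcr2, an inhibitory receptor, one of -1.19 (SE 0.29, adjusted p = 0.321, edgeR). Without WT replicate 2, Cd274 was at -0.39, Il10 at -1.17 and Havcr2 at -0.96, and Socs3 also missed the threshold. Maf was at -0.43 (SE 0.32, adjusted p = 0.524, edgeR). Counts of 4, 4 and 1 past the threshold among 11, 8 and 12 tested genes of the type 1, IL-27 and induction lists stand beside 5.85% of all tested genes. Whether these counts follow the number of cells of a type in a lesion was not tested.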

How the data were processed

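Messenger RNA of 6 whole lesions, 3 WT and 3 KO by the sample titles, was sequenced from stranded libraries. The deposited values are raw counts of reads per gene, which the authors made by trimming, mapping and counting on Galaxy. Per the labels the tools were Trimmomatic, featureCounts and DESeq2 on GRCm39, while the paper names GRCm38; the aligner, strand setting and annotation release are not given in the sources used here. The per-sample files equalled the table in 6 of 6 cases. Symbols came from GENCODE M21 (GRCm38), where 51948 of 56884 identifiers were found; coordinates and exon lengths are from that release. The counts went into edgeR 4.0.16 (R 4.3.3) with filterByExpr, which left 18177 genes, TMM factors and a quasi-likelihood test of genotype alone. Adjusted p-values are Benjamini-Hochberg values across those genes, and an SE is the log2 fold change over the root of its F statistic. Permutation tests were exact and two-sided. All 10 genes were named whatever their values. From each pathway list, up to 4 genes past the threshold were named by mean CPM, with the most abundant other gene, except that 1 result of the type 17 list and that list's count are not reported here; Ifng and Il17a were added after their values were seen. Genes and lists were chosen with earlier results of these data known. Alternatives were other scalings (RLE, upper quartile), filters, DESeq2 1.42.0, limma 3.58.1 with voom, a replicate block, each lesion left out, other count minimums and transcript lengths. Nothing in the labels names separate animals, but the study's methods give 3 donors per genotype. The steps were tested on simulated data.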

Additional observations from a re-analysis of the deposited data

How the results depend on the processing

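The number of the 10 genes past the threshold on the lower side was 5 and ran from 3 to 7 with each lesion left out in turn. It was 3 (Il12b, Il12rb2 and Il12a) without KO replicate 1 and 7 without WT replicate 1, when Il23a and Stat4 joined. With the replicate block it was also 3. The replicate numbers did not pair the lesions: deviations of same-numbered lesions from their group means correlated at 0.0318, -0.152 and -0.201 across tested genes. DESeq2 gave 6 of 9 genes, with Il27 and Stat4 among them and no p for Ebi3, and its share over all genes was not worked out. With counts divided by 2, an alternative chosen after seeing the data, the number was 5. Another fit chosen so had WT replicate 2 as the lone WT lesion, taken to vary like the KO lesions. Its log2 fold changes were -5.89 for Il12a, -2.32 for Il12b, -3.87 for Ebi3, -2.72 for Il12rb1 and -1.37 for Il12rb2. On the higher side the number past the threshold was 0 throughout. Il12b was past the threshold in all 15 alternatives and Il12a in all 14 in which it was tested, since a filter of 10 counts in every library removed it. Il12rb2 was past it in 14 of 15, Il12rb1 in 13 of 15 and Ebi3 in 8 of 14. Adjusted p-values ran from 3.36e-05 with DESeq2 to 0.669 without KO replicate 2 for Il12a.

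Over all 6 lesions, IL-23 went from 6 to 3 lesions with both chains at a minimum of 30 counts, and the IL-12 receptor also went from 6 to 3. IL-27 went from 1 lesion to 5 at a minimum of 1 count and 4 at a minimum of 4, and with a lesion left out ranged from 0 (without WT replicate 2) to 1. The IL-23 receptor went from 2 lesions to 5 at a minimum of 1 or 4 counts and 1 at a minimum of 30, and ranged from 1 to 2 with a lesion left out. Transcript length moved no order of chains by more than 1 lesion. Il17ra, near 0, turned to 0.02 with upper quartile scaling, 0.03 with limma voom, 0.36 without WT replicate 2 and 0.14 without KO replicate 2 (-0.41 to 0.36 over the lesions left out). A level of 3 counts corresponds to 0.0526 to 0.0675 CPM in these libraries.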

Other observations

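Low counts were mostly even in every library. In KO replicate 2, 212 genes had exactly 1 count and 2406 had exactly 2, and in WT replicate 2 the numbers were 256 and 2544. The counts of Il12a (50, 70, 32 and 4), Il12b in KO lesions (10, 12 and 14) and Il23a in KO lesions (92, 74 and 186) were all even. Whether both mates of a read pair were counted apart was not tested.

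Il17f had 18, 68 and 4 counts in WT and 0, 0 and 2 counts in KO lesions, and Il22 had 2, 8 and 0 counts in WT and 0 counts in each KO lesion. These genes were picked after their values were seen, and neither reached the filter.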
